A study of Homo sapiens with 6 samples.

Results

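The hypoxia and glycolysis genes were a list of 38 genes of the oxygen response and of the route from glucose to lactate, chosen by gene symbol among 20979 symbols. RNA was measured in A172 cells, an established human glioblastoma line. The cells received a miR-324-5p duplex, a miR-324-3p.1 duplex or a control miRNA with a lipid reagent and were collected after 1 day (2 libraries in each of 3 groups). All groups therefore shared the line, the transfection and the time, and the labels name no low-oxygen exposure in any group. The study deals with which arm of a hairpin becomes the microRNA, and each duplex is named for an arm of miR-324. The question put to the 38 genes was whether their transcripts differed between the duplexes and the control miRNA, or between the duplexes. Of the 38, 37 were listed in all 6 libraries, 36 reached a mean of 1 TPM (a level scaled by transcript length and library size) and entered the test, CA12 was listed below that mean, and CA9 was not listed in any library and was taken as 0.

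Cells sense oxygen through hypoxia-inducible factors. Prolyl hydroxylases mark the alpha subunits for destruction when oxygen is plentiful, and when oxygen is short the subunits persist, pair with ARNT and switch on genes for glucose uptake, glycolysis, lactate export and blood vessel growth. Glycolysis splits glucose to pyruvate, and lactate dehydrogenase turns pyruvate into lactate, which leaves or enters the cell through monocarboxylate transporters. Glioblastoma is known for high glucose use and lactate release and for zones of low oxygen.

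The sequences that bear on the comparison between duplexes are the microRNA arms and the matching sites in the genes. The mature arms of miR-324 come from the MIR324 hairpin on chr17, minus strand, in RefSeq on GRCh38.p14, and capitals mark the seed, bases 2 to 8. Since no label spells out the 3p.1 strand, its seed was read from the hairpin at 3 possible starts, bases 50, 51 and 53.
miR-324-5p, chr17:7223343-7223364: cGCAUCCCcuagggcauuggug
miR-324-3p from hairpin base 50, chr17:7223308-7223330: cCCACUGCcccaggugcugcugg
miR-324-3p from hairpin base 51: cCACUGCCccaggugcugcugg
miR-324-3p from hairpin base 53: aCUGCCCCaggugcugcugg

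A site was counted where the longest 3′UTR of a gene in GENCODE 29 on GRCh38 held the reverse complement of bases 2 to 8 of the arm (7mer-m8, GGGATGC for the 5p arm), that word followed by A (8mer), or the match to bases 2 to 7 followed by A (7mer-A1, GGATGCA). Sites of the 5p arm lay in 4 of the 36 members tested (11.11%), against 1717 of 11743 tested genes with an annotated 3′UTR (14.62%). They were in SLC16A1, PFKFB4, PFKL and PDK1, and CA12, which was below the test minimum, held an 8mer. Each site is shown in 30 bases of the transcript strand with the matching letters in capitals, and all of them are in 3′UTR sequence.
SLC16A1 7mer-m8, chr1:112913219-112913225, minus strand: taccttttcttGGGATGCttattagaagcc
SLC16A1 7mer-A1, chr1:112912639-112912645, minus strand: ttagaattgctGGATGCAtttttaccctcc
PFKFB4 8mer, chr3:48519088-48519095, minus strand: ttcagcacattGGGATGCAcagaaacgtga
PFKFB4 7mer-A1, chr3:48517941-48517947, minus strand: gttgctggactGGATGCAttacgaggactg
PFKL 7mer-m8, chr21:44327262-44327268, plus strand: gtgttgagaggGGGATGCccctggccctgc
PDK1 7mer-A1, chr2:172607740-172607746, plus strand: agcagcagcaaGGATGCAaggaccagaagg
CA12 8mer, chr15:63326081-63326088, minus strand: gatcgatggatGGGATGCActctcagacca

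The SLC16A1 sites began at bases 666 and 1246 of a 3′UTR of 2044 bases. The PDK1 site lay at base 11771 of an annotated 3′UTR of 12700 bases, so whether the transcripts in these cells held it was not tested. For the 3p arm, sites (GCAGTGG for the start at base 50, GGCAGTG for base 51 and GGGGCAG for base 53, with their 8mer and 7mer-A1 forms) lay in 11, 8 and 10 of the 36 members (30.56%, 22.22% and 27.78%), against 32.14%, 30.9% and 28.06% of genes. A match of letters is a description and not a measured binding site.

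Glial and mesenchymal markers differed widely in level: over the 6 libraries VIM (vimentin) stood at 4788 to 5910 TPM, CD44 at 708 to 929 TPM, NES at 90.92 to 132.54 TPM and SOX9 at 30.74 to 48.57 TPM, but FN1 (fibronectin) at 10.12 to 16.57 TPM and SOX2 at 1.75 to 3.29 TPM. GFAP, the astrocyte filament gene, was at 0.05 to 0.25 TPM and S100B was not listed. Of the neuronal markers, TUBB3 was at 245.76 to 302.14 TPM and SYT1 at 10.12 to 12.06 TPM, while RBFOX3 reached at most 0.27 TPM and SNAP25 at most 0.02 TPM. Of the blood markers, CD3E and HBB were not listed, PTPRC was at 5.52 to 7.48 TPM and CD68 at 32.67 to 60.21 TPM. Markers of oligodendrocytes (MBP, MOG) and endothelium (PECAM1, CDH5, VWF) reached at most 0.57 TPM, and of the epithelial markers EPCAM was at 1.23 to 3.01 TPM, KRT5 at 0.68 to 2.23 TPM and CDH1 at most 0.17 TPM. Between 13216 and 13536 genes reached 1 TPM in a library. TPM keeps no read number, so depth is unknown, and in bulk RNA fewer cells of a type and less RNA per cell cannot be told apart. The control libraries stood apart in 18 interferon-induced genes, whose median was 13.2 and 8.87 TPM in 5p-duplex libraries, 9.07 and 12.5 TPM in 3p.1-duplex libraries and 71.5 and 228 TPM in control libraries. The part of that difference in the comparisons with control was not tested.

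Across the set, levels ran from a mean of 0.685 TPM for CA12, the lowest listed, to 3319 TPM for GAPDH (5 members at a mean of at least 1000 TPM, 9 from 100 to 1000, 16 from 10 to 100 and 8 below 10). The 38 genes together held 1.36% and 1.32% of the TPM of 5p-duplex libraries, 1.37% and 1.29% of 3p.1-duplex libraries and 1.37% and 1.26% of control libraries. These sums overlapped between all groups, and in each group the library of replicate 1 was the higher.

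**Figure D1:**
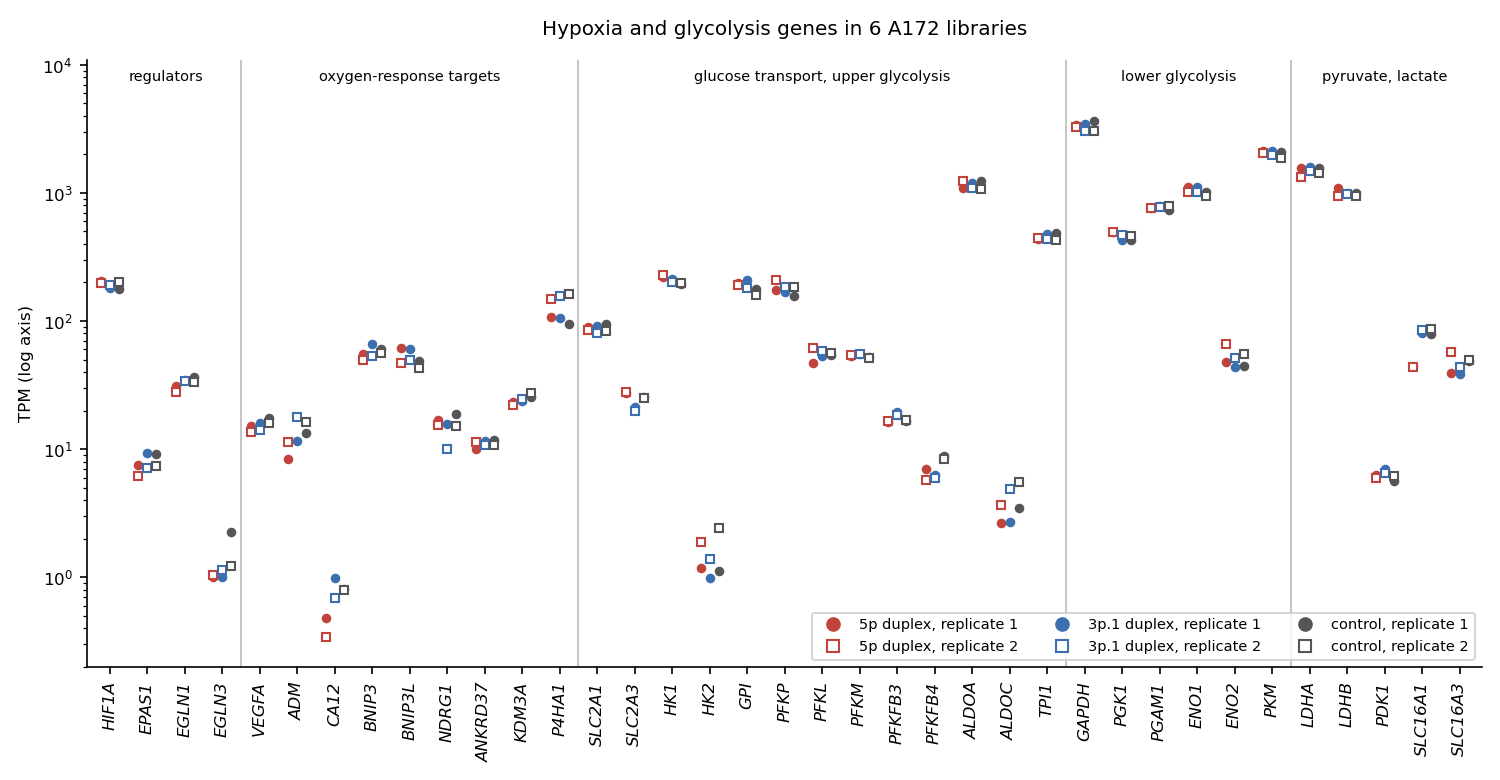
Level of each of the 37 listed members in each of 6 libraries, in TPM on a log axis, ordered by role. GAPDH, PKM, LDHA, ALDOA and ENO1 lay at or above 1000 TPM on average and CA12 below 1 TPM, and SLC16A1 is the member whose 5p-duplex libraries (44.27 and 44.02 TPM) sit far under the other 4.

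One member differed between groups past the threshold. SLC16A1, which encodes the monocarboxylate transporter MCT1 that carries lactate and pyruvate across the plasma membrane, stood at 44.27 and 44.02 TPM with the 5p duplex, at 80.04 and 85.27 TPM with the 3p.1 duplex and at 78.62 and 86.90 TPM with control. Both 5p-duplex libraries lay well below the other 4, which interleaved. Its level fell to 44.15 ± 0.177 TPM with the 5p duplex, against 82.76 ± 5.85 TPM in control (SD, n = 2 each), a log2 change of -0.89 (SE 0.0921, 95% interval -1.11 to -0.67, 0.54-fold, limma adjusted p = 0.0251). Against the 3p.1 duplex, at 82.66 ± 3.70 TPM, the log2 change was -0.89 (SE 0.0921, limma adjusted p = 0.0252). These comparisons share the 5p-duplex libraries and are not independent of each other. For the 3p.1 duplex against control the log2 change was -0.0008, with a 95% interval from -0.22 to 0.22, which leaves out a change of the size seen with the 5p duplex.

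SLC16A1 was thus 1 of 36 members called for the 5p duplex against control, where 0.463% of all 13400 genes were called and 0.425% were called lower. For the 5p duplex against the 3p.1 duplex it was again 1 of 36, with 0.433% of genes called and 0.351% called lower. For the 3p.1 duplex against control no member was called, with 0.0149% of genes called by limma, and 2 of 36 members had an unadjusted p under 0.05. By p, SLC16A1 ranked 24 of 62 called genes against control and 26 of 58 against the 3p.1 duplex. By size of fall it ranked 44 and 30 among the called genes, so many called genes fell further. Within a replicate number it was 44.27 TPM with the 5p duplex against 78.62 TPM in control for replicate 1, and 44.02 against 86.90 TPM for replicate 2.

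The call against control was lost in 5 of the 6 fits with a library left out and held without control replicate 1. In these fits the log2 change stayed between -0.96 and -0.82, and the limma adjusted p was 0.155 and 0.138 without 5p duplex replicate 1 or 2, 0.0847 and 0.0836 without 3p.1 duplex replicate 1 or 2, 0.0946 without control replicate 2 and 0.0245 without control replicate 1. Against the 3p.1 duplex the log2 change stayed between -0.93 and -0.84, and no fit with a library left out kept the call: the adjusted p was 0.245 and 0.158 without the 5p duplex libraries, 0.2095 and 0.274 without the 3p.1 duplex libraries and 0.0552 and 0.0544 without the control libraries, each for replicate 1 and then replicate 2. Both calls were also lost with no filter on low values (adjusted p = 0.0758 against control and 0.0714 against the 3p.1 duplex), with only the 2 groups compared in the model (0.0852 and 0.0549) and with no variance trend (0.0534 and 0.0584).

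SLC16A1 lies at chr1:112911847-112957013 on the minus strand (GRCh38, ENSG00000155380.11), and the antisense gene SLC16A1-AS1 and the pseudogene AKR7A2P1 overlap it on the other strand. SLC16A1-AS1 was at 2.41 and 4.49 TPM with the 5p duplex, 2.56 and 3.32 TPM with the 3p.1 duplex and 2.15 and 3.85 TPM in control, small beside SLC16A1 and overlapping between groups. The libraries were stranded, but whether the counting used strand is not given in the sources used here. BSG encodes basigin, the chaperone that takes MCT1 and MCT4 to the cell surface. It was at 461.38 and 497.96 TPM with the 5p duplex, 486.54 and 481.06 TPM with the 3p.1 duplex and 594.43 and 489.76 TPM in control. The 5p-duplex libraries overlapped control, both 3p.1-duplex libraries lay below both control libraries, and BSG did not pass in any comparison of groups (limma adjusted p 0.7513 to 0.985).

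SLC16A3 encodes MCT4, a transporter through which highly glycolytic cells export lactate. It was at 39.48 and 56.89 TPM with the 5p duplex, 38.38 and 44.13 TPM with the 3p.1 duplex and 48.44 and 49.93 TPM in control. The 5p-duplex libraries lay on both sides of control, and the log2 change was -0.05 (95% interval -0.48 to 0.37, limma adjusted p = 0.961). SLC16A1 made up 52.9% and 43.6% of the summed TPM of SLC16A1 and SLC16A3 with the 5p duplex. Its share was 67.6% and 65.9% with the 3p.1 duplex and 61.9% and 63.5% in control. The 5p-duplex shares were the lowest of the 6. SLC16A7, the high-affinity transporter MCT2, was at 3.08 and 3.65 TPM with the 5p duplex, 2.98 and 3.77 TPM with the 3p.1 duplex and 2.43 and 3.83 TPM in control, with no separation of groups.

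**Figure D2:**
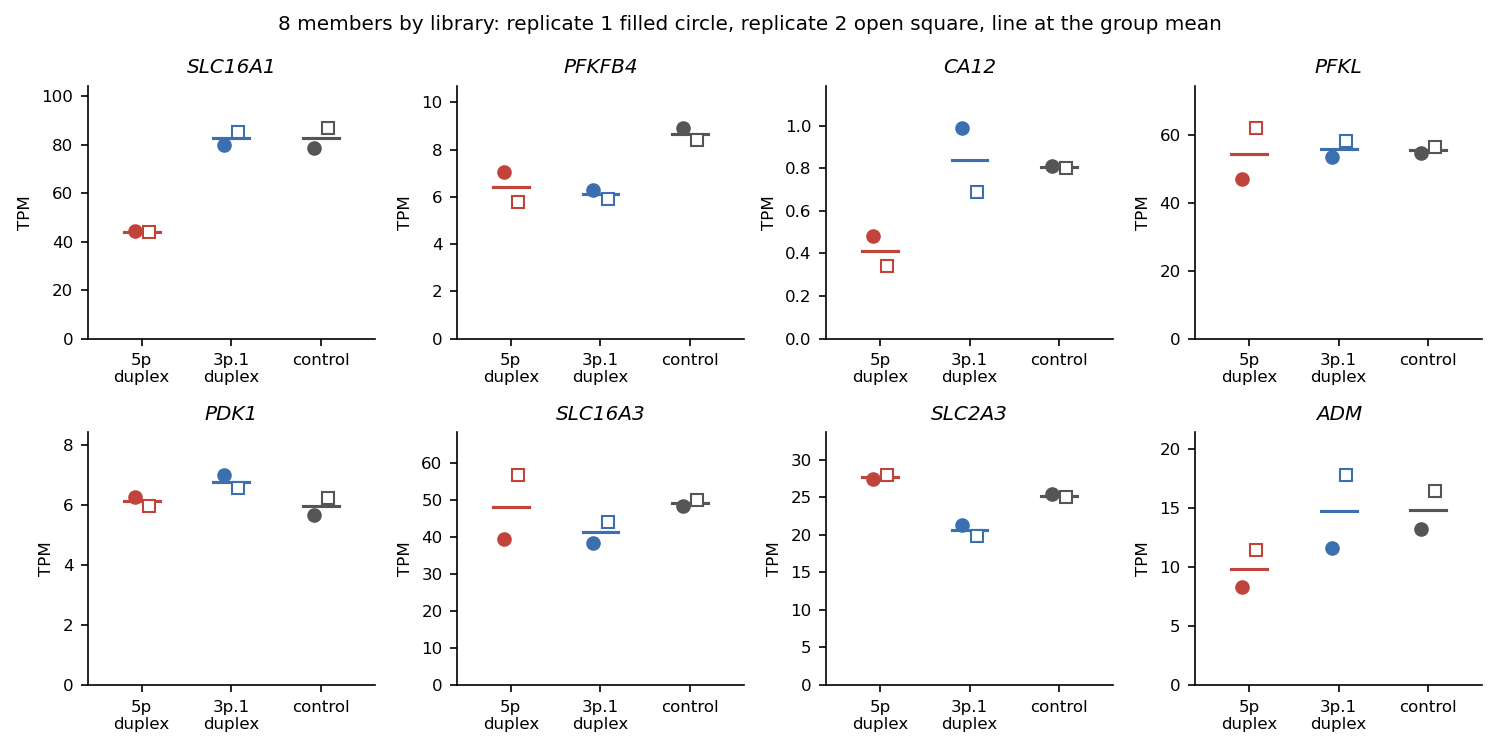
TPM of 8 members in each library, with a line at the mean of 2 libraries; axes start at 0. SLC16A1, PFKFB4, CA12, PFKL and PDK1 hold a 5p-arm site in the 3′UTR, and the transporters SLC16A3 and SLC2A3 and ADM are shown for comparison: the 5p-duplex points of SLC16A1 are about 44 TPM while its other points are 78.62 TPM or more.

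The other genes with a 5p-arm site did not pass the test in any comparison. PFKFB4, a bifunctional enzyme that sets the level of fructose-2,6-bisphosphate, the activator of phosphofructokinase, was at 7.05 and 5.78 TPM with the 5p duplex, 6.30 and 5.90 TPM with the 3p.1 duplex and 8.91 and 8.42 TPM in control. Every duplex library lay below both control libraries, and the duplexes overlapped each other. The log2 change was -0.39 for the 5p duplex (SE 0.134, limma adjusted p = 0.43) and -0.45 for the 3p.1 duplex (SE 0.134, adjusted p = 0.564), both against the same control libraries. Between the duplexes it was 0.06 (95% interval -0.26 to 0.38). Sites of the 3p arm started at base 53 lay in 10 of the 36 tested members (27.78%), beside 28.06% of genes, and PFKFB4 was among them. For the 3p.1 duplex against control, the log2 changes of the other members with such a site went both ways, from -0.40 for NDRG1 to 0.16 for PDK1. Whether the site bears on the level of PFKFB4 was not tested. The PFKFB4 3′UTR held it as a 7mer-m8 match.
PFKFB4 7mer-m8 of the 3p arm, chr3:48519063-48519069, minus strand: gtgagggcaggGGGGCAGttgtggtcgccc

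CA12, a membrane carbonic anhydrase, was listed at 0.48 and 0.34 TPM with the 5p duplex, 0.99 and 0.69 TPM with the 3p.1 duplex and 0.81 and 0.80 TPM in control. The 5p-duplex values were the lowest of the 6, but the gene was too low to enter the test. PFKL, the liver-type phosphofructokinase, was at 46.81 and 61.94 TPM with the 5p duplex, 53.39 and 58.20 TPM with the 3p.1 duplex and 54.51 and 56.32 TPM in control; its 5p-duplex libraries were both the lowest and the highest. PDK1 encodes a kinase that inhibits pyruvate dehydrogenase. It was at 6.26 and 5.97 TPM with the 5p duplex, 7.0 and 6.54 TPM with the 3p.1 duplex and 5.66 and 6.22 TPM in control, with a log2 change of 0.04 for the 5p duplex against control (95% interval -0.25 to 0.33). Of the kinase family, PDK1 gave 29.1% and 27.9% of the TPM with the 5p duplex, 27% and 28.2% with the 3p.1 duplex and 24.5% and 26.7% in control.

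Among the regulators, HIF1A, the main oxygen-labile alpha subunit, was at 204.47 and 197.84 TPM with the 5p duplex, 182.63 and 191.06 TPM with the 3p.1 duplex and 176.92 and 200.21 TPM in control. EPAS1, which encodes HIF-2 alpha, was at 7.55 and 6.13 TPM with the 5p duplex, 9.30 and 7.18 TPM with the 3p.1 duplex and 9.21 and 7.41 TPM in control. Control overlapped both duplex groups for each subunit, and HIF1A held 95.1% to 97% of their summed TPM in every library. HIF activity is set largely through protein stability, which RNA levels do not measure.

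EGLN1, the prolyl hydroxylase that marks HIF alpha subunits, was at 31.23 and 27.83 TPM with the 5p duplex, 34.79 and 33.78 TPM with the 3p.1 duplex and 36.89 and 33.44 TPM in control. The 5p-duplex libraries lay below the other 4, with a log2 change of -0.25 against control (95% interval -0.50 to 0.01, limma adjusted p = 0.56). EGLN3, a hydroxylase that is itself induced by low oxygen, was at 1.00 and 1.04 TPM with the 5p duplex, 1.01 and 1.13 TPM with the 3p.1 duplex and 2.26 and 1.22 TPM in control. Control replicate 1 stood alone above the other 5 values, and the log2 change of -0.41 for the 5p duplex did not pass (limma adjusted p = 0.642).

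None of the 8 tested oxygen-response targets passed the test in a comparison of groups. ADM, the vasodilator peptide adrenomedullin, had the widest difference: 8.32 and 11.40 TPM with the 5p duplex, 11.62 and 17.83 TPM with the 3p.1 duplex and 13.26 and 16.41 TPM in control. Its 5p-duplex libraries were the lowest of the 6. Within a replicate number it was 8.32 TPM with the 5p duplex against 13.26 TPM in control for replicate 1, and 11.40 against 16.41 TPM for replicate 2. Replicate 2 was higher in each group, and the 3p.1-duplex replicates differed from each other by more than the 5p-duplex and control means did. In the model of group means, which holds no replicate term, the log2 change of -0.55 had a 95% interval from -1.12 to 0.02 (limma adjusted p = 0.563). VEGFA, the vascular growth factor, was at 15.04 and 13.68 TPM with the 5p duplex, 16.14 and 14.04 TPM with the 3p.1 duplex and 17.44 and 16.05 TPM in control. Its log2 change for the 5p duplex against control was -0.21 (95% interval -0.50 to 0.08).

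BNIP3, a mitophagy receptor of the outer mitochondrial membrane, was at 55.69 and 49.82 TPM with the 5p duplex, 65.80 and 53.75 TPM with the 3p.1 duplex and 60.26 and 56.58 TPM in control. GENCODE 29 names 39 pseudogenes after it, and how reads shared with them were split is not given in the sources used here. Its relative BNIP3L was at 62.13 and 46.91 TPM with the 5p duplex, 60.37 and 49.96 TPM with the 3p.1 duplex and 48.95 and 42.99 TPM in control, a log2 change of 0.25 for the 3p.1 duplex against control (95% interval -0.14 to 0.65). Neither gene passed, and in all 3 groups replicate 1 was higher than replicate 2 for both.

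NDRG1, a stress-response gene often used as a hypoxia marker, was at 16.86 and 15.37 TPM with the 5p duplex, 15.77 and 9.94 TPM with the 3p.1 duplex and 18.83 and 15.07 TPM in control; the 3p.1 duplex replicate 2 value was the lowest of the 6. Its log2 change for the 3p.1 duplex was -0.40 against control (95% interval -0.92 to 0.13). ANKRD37, an ankyrin-repeat HIF target, was at 10.08 and 11.32 TPM with the 5p duplex, 11.51 and 10.69 TPM with the 3p.1 duplex and 11.70 and 10.81 TPM in control, and so differed little between any libraries. KDM3A, a histone demethylase, averaged 22.58 ± 0.778 TPM with the 5p duplex, 24.12 ± 0.488 TPM with the 3p.1 duplex and 26.56 ± 1.18 TPM in control (SD, n = 2 each), a log2 change of -0.23 for the 5p duplex that did not pass (limma adjusted p = 0.556). P4HA1, a collagen prolyl hydroxylase subunit, averaged 128.2 ± 29.9 TPM with the 5p duplex, 130.3 ± 36.1 TPM with the 3p.1 duplex and 128.6 ± 46.6 TPM in control, with a spread inside each group far wider than the differences between groups. Replicate 2 was the higher library in each group, so these SDs include the difference between replicate numbers that is given below.

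The glucose transporters differed from each other in pattern. SLC2A1, the widespread transporter GLUT1, was at 89.34 and 85.08 TPM with the 5p duplex, 91.73 and 80.22 TPM with the 3p.1 duplex and 95.40 and 83.52 TPM in control, with overlap throughout. SLC2A3, the high-affinity transporter GLUT3, was at 27.50 and 28.04 TPM with the 5p duplex, 21.31 and 19.92 TPM with the 3p.1 duplex and 25.42 and 24.99 TPM in control. Its 3 groups did not overlap, with the 5p duplex highest and the 3p.1 duplex lowest. The log2 change was 0.41 for the 5p duplex against the 3p.1 duplex (SE 0.0932, unadjusted p = 0.00381 in limma), which did not pass over all genes (limma adjusted p = 0.217). For the 3p.1 duplex against control it was -0.28 (SE 0.0932, limma adjusted p = 0.612). SLC2A3 gave 23.5% and 24.8% of the summed TPM of the pair with the 5p duplex, 18.9% and 19.9% with the 3p.1 duplex and 21% and 23% in control.

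HK1, the hexokinase that traps glucose in the cell, was the more abundant of the hexokinase pair, at 222.00 and 228.04 TPM with the 5p duplex, 214.20 and 201.99 TPM with the 3p.1 duplex and 193.97 and 198.73 TPM in control. The groups did not overlap, but the log2 change of 0.20 for the 5p duplex against control did not pass (95% interval 0.0019 to 0.39, limma adjusted p = 0.539). HK2, the hypoxia-inducible hexokinase, was at 1.19 and 1.88 TPM with the 5p duplex, 0.99 and 1.38 TPM with the 3p.1 duplex and 1.12 and 2.42 TPM in control, and HK1 held 98.8% or more of the pair in every library. GPI, which isomerises glucose-6-phosphate, averaged 196.1 ± 5.09 TPM with the 5p duplex, 196.0 ± 20.2 TPM with the 3p.1 duplex and 168.0 ± 12.4 TPM in control (SD, n = 2 each). Both log2 changes against control were 0.22, and neither passed (limma adjusted p = 0.603 and 0.773).

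Of the phosphofructokinases, the platelet-type PFKP supplied 59.6% to 64.2% of the summed TPM of PFKP, PFKL and PFKM in every library. PFKP averaged 191.1 ± 25.1 TPM with the 5p duplex, 175.8 ± 10.3 TPM with the 3p.1 duplex and 170.6 ± 17.8 TPM in control. The muscle-type PFKM stayed within 51.29 to 55.04 TPM over the 6 libraries. PFKFB3, the relative of PFKFB4 with the stronger kinase activity, was at 16.40 and 16.66 TPM with the 5p duplex, 19.55 and 18.55 TPM with the 3p.1 duplex and 16.53 and 16.78 TPM in control. Its 3p.1-duplex libraries were the highest, with a log2 change of 0.18 against control that did not pass (95% interval -0.05 to 0.42). PFKFB4 accordingly made up 30.1% and 25.8% of the pair with the 5p duplex, 24.4% and 24.1% with the 3p.1 duplex and 35% and 33.4% in control, where it was highest.

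The aldolase ALDOA, which splits fructose-1,6-bisphosphate, averaged 1161 ± 94.5 TPM with the 5p duplex, 1153 ± 72.9 TPM with the 3p.1 duplex and 1149 ± 114 TPM in control, and held 99.5% or more of the summed TPM of ALDOA and ALDOC. ALDOC, the brain-type aldolase, was at 2.67 and 3.67 TPM with the 5p duplex, 2.72 and 4.88 TPM with the 3p.1 duplex and 3.50 and 5.55 TPM in control. In each group replicate 2 was higher, and the groups overlapped. TPI1, triosephosphate isomerase, averaged 441.7 ± 2.38 TPM with the 5p duplex, 458.0 ± 27.7 TPM with the 3p.1 duplex and 458.4 ± 45.0 TPM in control.

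No gene of lower glycolysis passed the test. GAPDH, the dehydrogenase of glyceraldehyde phosphate and the most abundant member, averaged 3357 ± 87.6 TPM with the 5p duplex, 3240 ± 279 TPM with the 3p.1 duplex and 3361 ± 425 TPM in control (SD, n = 2 each), with a log2 change of 0.0038 for the 5p duplex against control and a 95% interval from -0.30 to 0.31. PGK1, which forms ATP in glycolysis, was at 496.58 and 491.84 TPM with the 5p duplex, 429.19 and 467.15 TPM with the 3p.1 duplex and 432.81 and 458.42 TPM in control. Its 5p-duplex libraries were the highest, with a log2 change of 0.15 that did not pass (95% interval -0.06 to 0.36). The mutase PGAM1 averaged 768.7 TPM with the 5p duplex, 779.5 TPM with the 3p.1 duplex and 763.2 TPM in control. The enolase ENO1 averaged 1067 TPM with the 5p duplex, 1060 TPM with the 3p.1 duplex and 983.7 TPM in control. Pyruvate kinase, PKM, averaged 2075 TPM with the 5p duplex, 2063 TPM with the 3p.1 duplex and 1978 TPM in control, and groups overlapped for ENO1 and PKM.

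ENO2, the neuronal enolase, was at 48.12 and 66.17 TPM with the 5p duplex, 43.86 and 51.05 TPM with the 3p.1 duplex and 44.21 and 55.19 TPM in control, again with replicate 2 higher in each group. All 6 lower glycolytic genes had a positive log2 change for the 5p duplex against control (0.0038 to 0.19, median 0.09) and none passed. Over all 13400 genes, 5718 were positive in that comparison. For the 3p.1 duplex against control, 4 of the 6 were positive. GENCODE 29 names 62 pseudogenes after GAPDH, 13 after PGAM1, 6 after LDHA, 5 after PKM and 4 each after ENO1 and TPI1, so these levels are uncertain to the extent that reads were shared. PGAM4, a near copy of PGAM1, was listed at 0.14 to 0.33 TPM.

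LDHA, the subunit that favours pyruvate to lactate, was at 1559.86 and 1343.03 TPM with the 5p duplex, 1582.34 and 1488.89 TPM with the 3p.1 duplex and 1569.08 and 1423.31 TPM in control. LDHB, which favours the return to pyruvate, was at 1087.12 and 949.44 TPM with the 5p duplex, 1006.98 and 982.07 TPM with the 3p.1 duplex and 1004.92 and 951.92 TPM in control. Groups overlapped for both, and LDHB held 38.9% to 41.4% of their sum in every library. The enzymes that make lactate therefore showed no difference past the threshold while the transporter gene SLC16A1 was lower with the 5p duplex; the difference between these changes was not tested.

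**Figure D3:**
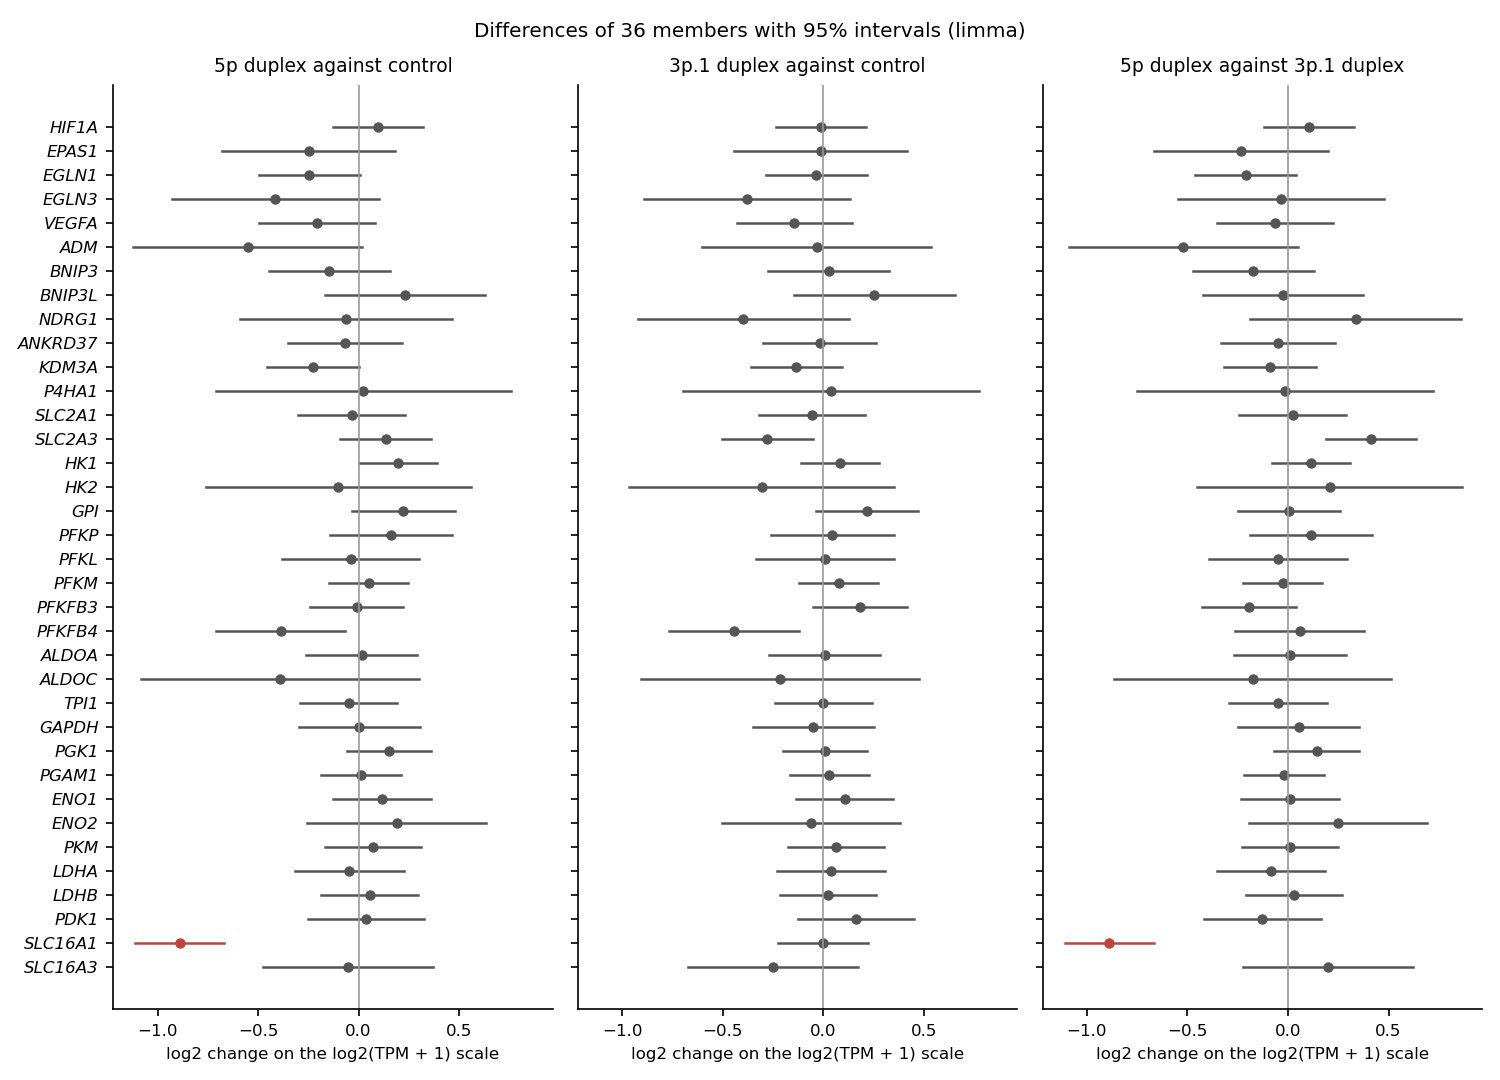
Log2 change of each of the 36 tested members with its 95% interval, on the log2(TPM + 1) scale, for the 5p duplex against control, the 3p.1 duplex against control and the 5p duplex against the 3p.1 duplex; red marks an adjusted p under 0.05. SLC16A1 is the red point at -0.89 in both panels of the 5p duplex and lies at -0.0008 in the panel of the 3p.1 duplex against control.

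As a set, the members differed between groups about as little as all genes tested. The median log2 change of the 36 was -0.02 for the 5p duplex against control, 0.0001 for the 3p.1 duplex against control and -0.02 for the 5p duplex against the 3p.1 duplex, beside -0.03, -0.03 and 0.01 for all 13400 genes. The change was under 0.25 in either direction for 31, 29 and 32 of the 36 (86.1%, 80.6% and 88.9%), beside 81.2%, 84.0% and 81.3% of all genes. The 95% interval stayed within 1 in either direction for 33, 36 and 34 members (91.7%, 100.0% and 94.4%), beside 93.9%, 94.8% and 94.6% of genes. It stayed within 0.5 for 25 members in each comparison (69.4%), beside 58.2%, 60.9% and 57.3% of genes. For the other members, the interval did not leave out changes of 0.5 or more. Unadjusted p-values under 0.05 were found for 3, 2 and 2 members, against 9.16%, 6.86% and 9.34% of all genes in the same limma model.

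Groups of 2 libraries did not overlap for 13 of 36 members (5 higher, 8 lower) for the 5p duplex against control, where 34.8% of all genes did not overlap, for 11 members (6 higher, 5 lower) for the 3p.1 duplex against control beside 36.3% of genes, and for 12 members (4 higher, 8 lower) for the 5p duplex against the 3p.1 duplex beside 40.4%. These shares of members (36.1%, 30.6% and 33.3%) were near those of all genes. By role, the median log2 change for the 5p duplex against control was -0.25 for the 4 regulators, -0.11 for the 8 oxygen-response targets, -0.01 for the 13 genes of glucose transport and upper glycolysis, 0.09 for the 6 of lower glycolysis and -0.05 for the 5 of pyruvate and lactate.

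Other genes of the same pathways were read from 3 further lists. Of 19 tested regulators of the HIF pathway beyond the members, such as ARNT, the partner of the alpha subunits, and VHL, the ubiquitin ligase subunit, none passed in any comparison of groups. ARNT2, a relative of ARNT, was at 6.50 and 6.23 TPM with the 5p duplex, 10.05 and 9.45 TPM with the 3p.1 duplex and 11.13 and 11.37 TPM in control. Its 3 groups did not overlap, and the log2 change of -0.73 for the 5p duplex against control (SE 0.109) came close to the threshold without passing it (limma adjusted p = 0.0648). HIF1AN, the asparaginyl hydroxylase that limits HIF activity, was at 25.25 and 26.84 TPM with the 5p duplex, 29.57 and 35.16 TPM with the 3p.1 duplex and 34.20 and 36.25 TPM in control. Its 5p-duplex libraries were the lowest of the 6, with a log2 change of -0.42 against control (limma adjusted p = 0.269). ARNT was at 30.78 and 30.75 TPM with the 5p duplex, 27.76 and 28.67 TPM with the 3p.1 duplex and 28.99 and 30.98 TPM in control. Of 47 further hypoxia targets tested, none passed in limma. An unadjusted limma p under 0.05 was found for 10 (21.3%) with the 5p duplex against control, beside 9.16% of all genes. For the 3p.1 duplex against control it was 5 (10.6%) beside 6.86%, and for the 5p duplex against the 3p.1 duplex 5 (10.6%) beside 9.34%. The lowest of these p-values was that of ZNF395, a zinc finger gene, at 2.78 and 2.49 TPM with the 5p duplex, 3.53 and 3.34 TPM with the 3p.1 duplex and 5.96 and 4.52 TPM in control (log2 change -0.77 for the 5p duplex against control, limma adjusted p = 0.137). In the same order of comparisons, 2, 0 and 2 of the 19 regulators had an unadjusted limma p under 0.05 (10.5%, 0.0% and 10.5%). Of the 44 sugar metabolism genes described next, 2, 1 and 5 did (4.55%, 2.27% and 11.4%). The lists were chosen with earlier results of these data known.

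Of 44 further genes of glycolysis, pyruvate and linked sugar metabolism, 1 (2.27%) passed for the 5p duplex against control and against the 3p.1 duplex. The shares of all genes were 0.463% and 0.433%, and the list was chosen with earlier results of these data known. The gene was GPD2, the mitochondrial glycerol-3-phosphate dehydrogenase that passes electrons from glycolytic NADH to the respiratory chain. It was at 14.00 and 12.48 TPM with the 5p duplex, 35.85 and 31.02 TPM with the 3p.1 duplex and 30.51 and 31.40 TPM in control. Its 5p-duplex libraries lay far below the other 4, with a log2 change of -1.17 against control (SE 0.115, limma adjusted p = 0.0216) and -1.27 against the 3p.1 duplex (SE 0.115, limma adjusted p = 0.0227). The pyruvate carriers MPC1 and MPC2 and the dehydrogenase subunit PDHA1 did not pass, with log2 changes of -0.08, -0.02 and 0.02 for the 5p duplex against control.

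The libraries were also compared by replicate number. In a model with group and replicate number, 4 of 36 members were called for replicate 2 against replicate 1, all higher, where 9.4% of all genes were called and 5.81% were called higher. The share of members called, 11.1%, was near that of all genes called in either direction and above that of genes called higher. An unadjusted limma p under 0.05 was found for 16 of 36 members (44.4%), beside 29.2% of all genes. No member was called when genes of any level entered. The labels tie replicate number to no batch, culture or day, so what differed between the replicate numbers is not known. In replicate 2, P4HA1 was at 149.29 TPM with the 5p duplex, 155.78 TPM with the 3p.1 duplex and 161.56 TPM in control. In replicate 1 it was at 107.07 TPM with the 5p duplex, 104.79 TPM with the 3p.1 duplex and 95.61 TPM in control. Every replicate 2 library lay above every replicate 1 library, a log2 change of 0.60 (SE 0.0687, limma adjusted p = 0.0132). That call held with any 1 library left out (adjusted p 0.00132 to 0.0417) and was lost with no filter on low values (adjusted p = 0.0869).

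The other 3 calls were weaker. ALDOC was higher in replicate 2 by 0.52 (limma adjusted p = 0.0333), ADM by 0.43 (adjusted p = 0.0337) and ENO2 by 0.33 (adjusted p = 0.0401), each in all 3 groups. Leaving out a 3p.1 duplex library ended all 3 calls, with adjusted p-values of 0.2033 and 0.2055 for ALDOC, 0.258 and 0.261 for ADM and 0.164 and 0.164 for ENO2 (without replicate 1 and without replicate 2). Leaving out a 5p duplex library ended those of ADM (0.0656 and 0.0676) and ENO2 (0.0716 and 0.0727). When either library of a group is left out, the other carries no information on replicate number. Under another scaling, with quantile normalization or median scaling, ADM and ENO2 were no longer called (adjusted p 0.051 to 0.0574) and kept their direction. None of the 3 was called with no filter on low values (0.105 to 0.1092), nor ENO2 with no variance trend (0.0644).

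**Figure D4:**
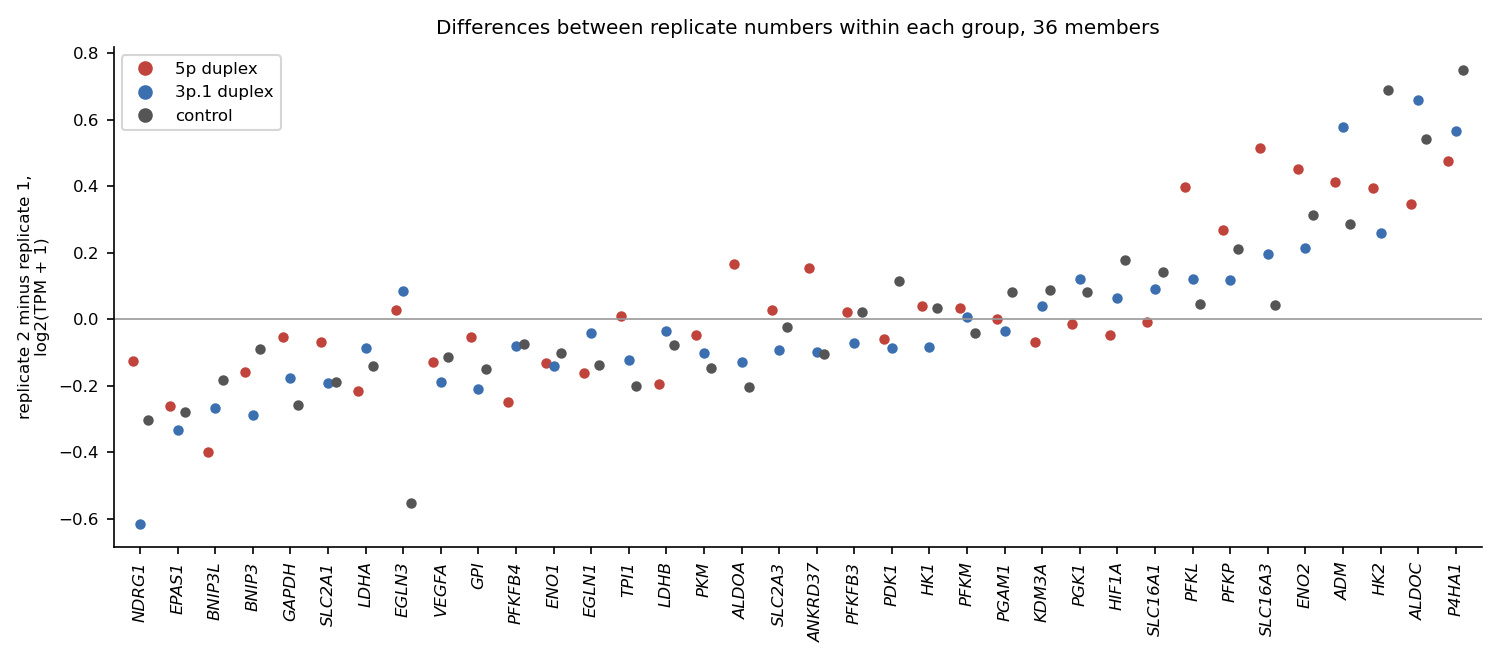
Difference between replicate 2 and replicate 1 within each group, on the log2(TPM + 1) scale, for the 36 tested members ordered by the fitted difference; each point is 1 group. P4HA1, ALDOC, HK2, ADM and ENO2 lie above 0 in all 3 groups, and EPAS1, BNIP3L, BNIP3, NDRG1, GAPDH, SLC2A1 and LDHA below 0.

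Among members not called, BNIP3L was lower in replicate 2 by a log2 change of -0.28 (limma adjusted p = 0.0511), EPAS1 by -0.29 (adjusted p = 0.063) and NDRG1 by -0.35 (adjusted p = 0.0907). The sign was the same in all 3 groups for 22 of 36 members (8 up and 14 down, 61.1%), beside 51.4% of all genes. The median over members was -0.02 and that over all genes 0.02. The replicate difference thus did not run one way through the set: ADM, P4HA1, ALDOC and ENO2 were higher in replicate 2, while LDHA and GAPDH had log2 changes of -0.15 and -0.16 that did not pass.

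In the further lists, 8 of 47 hypoxia targets (17%), 1 of 19 regulators (5.26%) and 5 of 44 sugar metabolism genes (11.4%) were called for replicate number, beside 9.4% of all genes. Of the hypoxia targets, 5 were called higher in replicate 2 and 3 lower. Of those called higher, the collagen crosslinking oxidase LOX had a log2 change of 0.56, its relative LOXL2 one of 0.38, the growth factor carrier IGFBP3 one of 0.51 and the adenylate kinase AK4 one of 0.54. BHLHE41, a clock repressor, differed by -0.88, the glycogen branching enzyme GBE1 by -0.39 and the ephrin EFNA1 by -0.41. Of the regulators, CITED2, a p300-binding inhibitor of HIF, differed by -0.28. Of the sugar metabolism genes, the phosphatase PGP was higher by 0.32, and PDHB of pyruvate dehydrogenase (-0.26), the transporter SLC2A12 (-0.61) and the transketolase TKT (-0.36) were lower.

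The promoters of the 4 members called for replicate number are shown with the core words of the hypoxia response element, the sequence that HIF binds. The 4 were selected by that call, so their shared direction is no independent finding, and no binding was measured. The words ACGTG and GCGTG were searched on both strands in RefSeq windows of 300 bases (250 before and 50 after the start, GRCh38.p14), where CACGTG counts as ACGTG on both strands. Each promoter is given on its gene's strand, with the words, or CACGT and CACGC on the other strand, in capitals.
P4HA1 promoter, chr10:73096817-73097116, minus strand: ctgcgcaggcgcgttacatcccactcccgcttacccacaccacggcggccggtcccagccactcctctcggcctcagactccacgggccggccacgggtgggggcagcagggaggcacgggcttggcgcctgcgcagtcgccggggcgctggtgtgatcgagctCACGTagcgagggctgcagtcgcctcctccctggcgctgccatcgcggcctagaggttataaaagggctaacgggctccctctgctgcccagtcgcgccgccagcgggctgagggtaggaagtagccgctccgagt
ALDOC promoter, chr17:28576846-28577145, minus strand: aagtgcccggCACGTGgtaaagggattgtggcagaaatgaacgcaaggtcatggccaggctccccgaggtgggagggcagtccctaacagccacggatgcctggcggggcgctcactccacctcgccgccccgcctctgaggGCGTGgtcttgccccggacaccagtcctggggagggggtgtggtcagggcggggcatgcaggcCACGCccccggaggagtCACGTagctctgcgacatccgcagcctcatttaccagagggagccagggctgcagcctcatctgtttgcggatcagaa
ADM promoter, chr11:10304823-10305122, plus strand: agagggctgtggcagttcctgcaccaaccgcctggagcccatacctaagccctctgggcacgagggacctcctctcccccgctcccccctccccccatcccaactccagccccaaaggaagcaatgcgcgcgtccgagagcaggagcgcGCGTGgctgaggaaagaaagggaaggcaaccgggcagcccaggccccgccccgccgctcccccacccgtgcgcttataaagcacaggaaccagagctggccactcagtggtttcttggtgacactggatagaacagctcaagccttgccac
ENO2 promoter, chr12:6914330-6914629, plus strand: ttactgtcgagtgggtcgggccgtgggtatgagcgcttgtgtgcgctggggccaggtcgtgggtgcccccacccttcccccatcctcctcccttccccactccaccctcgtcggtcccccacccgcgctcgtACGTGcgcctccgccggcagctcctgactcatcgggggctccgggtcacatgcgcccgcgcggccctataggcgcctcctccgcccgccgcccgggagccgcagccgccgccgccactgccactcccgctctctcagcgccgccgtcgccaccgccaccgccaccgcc

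ALDOC held 5 word matches and P4HA1, ADM and ENO2 held 1 each. LDHA and BNIP3 held 6 each and PGK1 held 4, and none of these was called for replicate number. Their log2 changes for replicate 2 against replicate 1 were -0.15 for LDHA, -0.18 for BNIP3 and 0.06 for PGK1. Either word was present in 23 of the 31 tested members with a promoter in the table (74.19%), against 63.28% of 9882 promoters of tested genes. ACGTG was in 38.71% of members and 26.79% of genes, and GCGTG in 51.61% and 50.86%. A word match is a description of the window and not a measured binding site.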

How the data were processed

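Poly(A)-enriched, stranded RNA libraries of A172 cells were read as 100 bp pairs on a BGISEQ-500, per the labels' protocols. For each library the authors deposited TPM by gene symbol. RSEM and GRCh38 are named per the submitters' processing notes, and the aligner, the annotation and any version were not given in the sources used here. TPM keeps no depth, so no count test or counting interval is given. Repeated symbols were summed within a library, and an unlisted symbol counted as 0.

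Differences were taken on log2(TPM + 1), a scale on which low genes appear to differ less than they do. The 13400 genes that averaged 1 TPM or more entered a model of group means in limma 3.58.1 (R 4.3.3, trend on mean expression), two-sided, with Benjamini-Hochberg adjustment over all genes and calls at an adjusted p under 0.05. Replicate number was tested in a model with group. All adjusted p-values come from limma, and errors of means are SD of 2 libraries. Whether replicates were separate cultures is not labelled; p-values reflect only the spread among the 6 libraries, which may be technical. Alternatives covered the pseudocount, filter, scaling, samples in the model, variance trend, replicate term and each library left out.

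The members and all gene lists were chosen with earlier results of these data known. Values per library are given for members called, for the 5 largest changes of each comparison at a mean of 5 TPM or more, and for a fixed list of members; of other lists, genes called are named, except some that are not reported here, plus ARNT, MPC1, MPC2, PDHA1 and SLC16A7, which were chosen for their roles, and ARNT2, HIF1AN and ZNF395, which had the lowest adjusted p-values of their lists for the 5p duplex against control. BSG and SLC16A1-AS1 were added after SLC16A1 was seen to be called. The starts of the 3p arm are those at hairpin bases 50 (the RefSeq start), 51 and 53.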

Additional observations from a re-analysis of the deposited data

Results flagged for a closer look

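SLC16A1, the MCT1 transporter gene, differed between the duplexes in the same contrast with control: the log2 change was -0.89 with the 5p duplex and -0.0008 with the 3p.1 duplex. The difference between them, which is also the direct comparison of the 5p duplex with the 3p.1 duplex, was -0.8892 (limma adjusted p = 0.0252; lower in 2 of 2 5p-duplex libraries than in any 3p.1-duplex library). Over 15 alternatives this difference stayed between -0.93 and -0.84 and the adjusted p ran from 0.00728 to 0.274.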

How the results depend on the processing

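The number of members called for the 5p duplex against control was 1 as reported and 0 under each of 3 settings (genes of any level tested without a filter, a model of only the 2 groups compared, and no variance trend), and it ran from 0 to 1 when each library was left out in turn. For the 5p duplex against the 3p.1 duplex it was 1 as reported, 0 under the same 3 settings and 0 in each of the 6 fits with a library left out. For the 3p.1 duplex against control it was 0 throughout. For replicate 2 against replicate 1 it was 4 as reported, 0 with no filter on low values and 1 to 6 with a library left out, an alternative chosen after seeing the data. The cause of these differences was not tested; leaving out a library leaves fewer samples, and no filter tests more genes. With median scaling the median log2 change of the members was 0.0354 for the 5p duplex against control, 0.0567 for the 3p.1 duplex against control and -0.0648 for replicate 2 against replicate 1. The median for the 5p duplex against the 3p.1 duplex ran from -0.0396 to 0.039 with a library left out. No called member changed sign in any alternative.

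Over all genes, 62, 2 and 58 were called for the 5p duplex against control, the 3p.1 duplex against control and the 5p duplex against the 3p.1 duplex. With no filter these counts were 9, 0 and 5, with only the 2 groups compared 11, 18 and 19, with no variance trend 33, 2 and 5, and with a library left out 7 to 128, 5 to 94 and 7 to 26. The count for replicate number was 1259, 6 with no filter and 169 to 1680 with a library left out.

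With the replicate block the members called stayed at 1, 0 and 1 and the counts over all genes were 367, 30 and 278; SLC16A1 then had an adjusted p of 0.00746 against control and 0.00728 against the 3p.1 duplex. The labels tie the numbers to nothing shared, and each group has only 2. Same-numbered libraries deviated together, with correlations across genes of 0.265 to 0.383 over all genes and 0.662 to 0.776 over the members, where genes are not independent replicates. Depth is unknown and 2 libraries per group limit what differences could be detected.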
